A study of Mus musculus with 8 samples.

Results

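The genes described here are 49 interferon response genes, chosen by name: interferon receptors, transcription factors, sensors of foreign RNA and DNA, the oligoadenylate synthetase (OAS) family, antiviral effectors, genes of ISG15, ubiquitin and ADP-ribose, and interferon-induced GTPases. A probe was matched through its RefSeq accession for 47 of the 49, among 20660 genes named by a matched probe. Of these, 44 were tested, among 14035 genes tested. Mx1 and Mx2 had no matched probe, and Oas1g, Cmpk2 and Gbp7 were not well above background on the 2 arrays that the filter asked for. The other 44 passed that filter.

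Gene expression was measured with 8 one-colour Agilent arrays on 1 slide, hybridised with labelled RNA from BMEL cells, a line of liver progenitors of the mouse embryo that can form hepatocytes or bile duct cells. The arrays differ by medium: 3 carry the label NoRX, 3 the label CM and 2 the label DIFF, and these names are not spelled out. The series title names media conditioned by human amniotic epithelial cells, and the composition of each medium, the time of exposure and any added agent are not given in the labels. All 8 samples come from the same cell line, and nothing says that they are separate cultures, so the p-values measure the spread between these samples, which may be technical. A further label numbers both DIFF arrays as replicate 1.

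Interferons are secreted proteins that warn cells of infection. Type I interferons bind the receptor of Ifnar1 and Ifnar2, whose kinases activate transcription factors; Stat2 and Irf9 are parts of the complex ISGF3, which binds the interferon-stimulated response element (ISRE) in promoters of antiviral genes. Type II interferon binds the receptor that contains Ifngr1 and acts mainly on another element, GAS. Liver epithelial cells carry both receptors and can make an antiviral response of their own.

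A promoter entry in RefSeq (GRCm38.p6, 250 bases before to 50 bases after a gene's start) was found for 37 of the 49 genes. The entries were searched on both strands for an ISRE core (GAAA, any 2 bases, then GAAA again) and for the GAS motif TTCNNNGAA. The ISRE core was found in 17 of 37 genes (45.9%), against 3.99% of all 27025 genes with an entry and 3.44% of all 32851 promoters. It was found in 3 of 3 sensors, 5 of 6 GTPases, 3 of 5 OAS genes, 4 of 11 effectors, 1 of 4 factors, 1 of 5 genes of ISG15, ubiquitin and ADP-ribose, and 0 of 3 receptors. The GAS motif was found in 10 of 37 genes (27%), against 9.55% of all genes and 8.3% of all promoters. Both motifs were found in 5 promoters of these genes and overlapped in 1. Dhx58, Zbp1, Oas2, Mx1, Mx2, Ifi27, Ifi27l2a, Rtp4, Usp18, Parp9, Parp14 and Iigp1 were not matched.

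The sequences below are the 250 bases before the start of the 5 genes that rose at least 2-fold in CM and hold the ISRE core, shown because they are the stretches in which letters of the known element stand beside a measured change. They are written 5′ to 3′ on the gene's strand, with each match to the ISRE core in capitals. Ifit3 lies on the plus strand (chr19:34583279-34583528), Ifit1 on the plus strand (chr19:34640639-34640888), Oas3 on the minus strand (chr5:120777660-120777909), Oas1a on the minus strand (chr5:120907526-120907775) and Isg15 on the minus strand (chr4:156200819-156201068).
Ifit3: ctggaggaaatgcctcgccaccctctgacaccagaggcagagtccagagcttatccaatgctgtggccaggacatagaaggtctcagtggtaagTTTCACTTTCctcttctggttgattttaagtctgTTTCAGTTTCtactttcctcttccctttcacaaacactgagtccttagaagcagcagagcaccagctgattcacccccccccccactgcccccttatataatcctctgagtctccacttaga
Ifit1: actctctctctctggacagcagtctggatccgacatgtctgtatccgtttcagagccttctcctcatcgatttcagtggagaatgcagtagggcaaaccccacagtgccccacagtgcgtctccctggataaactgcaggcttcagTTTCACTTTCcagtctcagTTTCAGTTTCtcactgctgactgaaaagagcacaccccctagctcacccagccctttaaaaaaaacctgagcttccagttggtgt
Oas3: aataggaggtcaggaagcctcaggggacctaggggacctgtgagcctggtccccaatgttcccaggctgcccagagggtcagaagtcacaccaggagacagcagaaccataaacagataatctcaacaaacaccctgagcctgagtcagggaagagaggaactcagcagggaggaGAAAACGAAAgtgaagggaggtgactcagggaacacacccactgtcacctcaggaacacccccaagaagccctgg
Oas1a: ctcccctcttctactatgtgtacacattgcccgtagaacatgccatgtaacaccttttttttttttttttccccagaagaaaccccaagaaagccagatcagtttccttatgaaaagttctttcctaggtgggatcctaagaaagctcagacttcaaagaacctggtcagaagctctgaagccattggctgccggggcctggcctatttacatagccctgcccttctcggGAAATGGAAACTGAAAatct
Isg15: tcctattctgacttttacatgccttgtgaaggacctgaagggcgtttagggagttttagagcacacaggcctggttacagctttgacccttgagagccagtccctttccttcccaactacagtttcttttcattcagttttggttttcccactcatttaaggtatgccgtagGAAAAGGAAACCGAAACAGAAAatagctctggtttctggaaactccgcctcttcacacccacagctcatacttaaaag
Ifit3 and Ifit1 hold the same 2 matched stretches, TTTCACTTTC and TTTCAGTTTC, at 156 and 122 bases before the start in Ifit3 and at 104 and 85 bases in Ifit1. The 3 matches of Isg15 overlap in 1 run that begins 78 bases before the start, and the 2 of Oas1a overlap in a run that begins 20 bases before it. Oas3 holds 1 match, 75 bases before its start. A match is a description of letters and not evidence of binding.

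The level of a gene is given below as the log2 signal of its brightest probe relative to the 75th percentile of the same array. Levels may be compared between arrays for the same gene, not between genes, because probes differ in how well they bind. Differences are log2 differences between group means with their standard error, and a gene is said to rise or fall where limma's p, adjusted over all 14035 genes by the Benjamini-Hochberg method, was under 0.05. A log2 difference of 1 is a 2-fold change.

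The share of probes well above background was 46.4% on DIFF 2 and between 50.8% and 53.5% on the other 7 arrays, and spots flagged for uneven local background numbered 1159 on DIFF 2 and between 3 and 90 elsewhere. Correlation between arrays of a group, over genes, was between 0.9935 and 0.9942 in NoRX, between 0.9908 and 0.9929 in CM, and 0.9603 between the DIFF arrays. The 3 NoRX arrays and CM 1 lie in the first row of the slide and the other 4 in the second, so NoRX and DIFF share no row. All 14 markers of BMEL cells and liver progenitors were tested and 13 of them were well above background on every array; Prom1 was not on 1 array. Of 14 macrophage and leukocyte markers 7 were tested, and Ptprc, Adgre1, Lyz2, Tyrobp and Clec4f were among those not well above background on 2 arrays.

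In CM the interferon response genes were for the most part higher than in NoRX. Of 44 tested, 30 rose and 4 fell (68.2% and 9.09%), where 26.9% of all genes tested rose and 25.3% fell, 52.2% in all. The median log2 difference of the 44 was 0.66, and that of all genes was 0.01. At least 2-fold rises were seen for 16 of the 44, against 6.21% of all genes, and 1 fell by at least 2-fold, against 5.19%. All CM arrays lay above all NoRX arrays for 30 of the 44 and below for 5, against 36.5% and 34.6% of all genes.

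The roles differed in how many members rose and by how much. All 5 tested OAS genes rose (median 1.72), as did 10 of 13 effectors (median 1.35), all 4 factors (median 0.58), 5 of 8 genes of ISG15, ubiquitin and ADP-ribose (median 0.65), 3 of 5 sensors (median 0.47) and 2 of 3 receptors (median 0.33). Of the 6 GTPases tested, 1 rose and 2 fell (median -0.05). These medians describe the members listed, and the difference between roles was not tested.

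**Figure D1:**
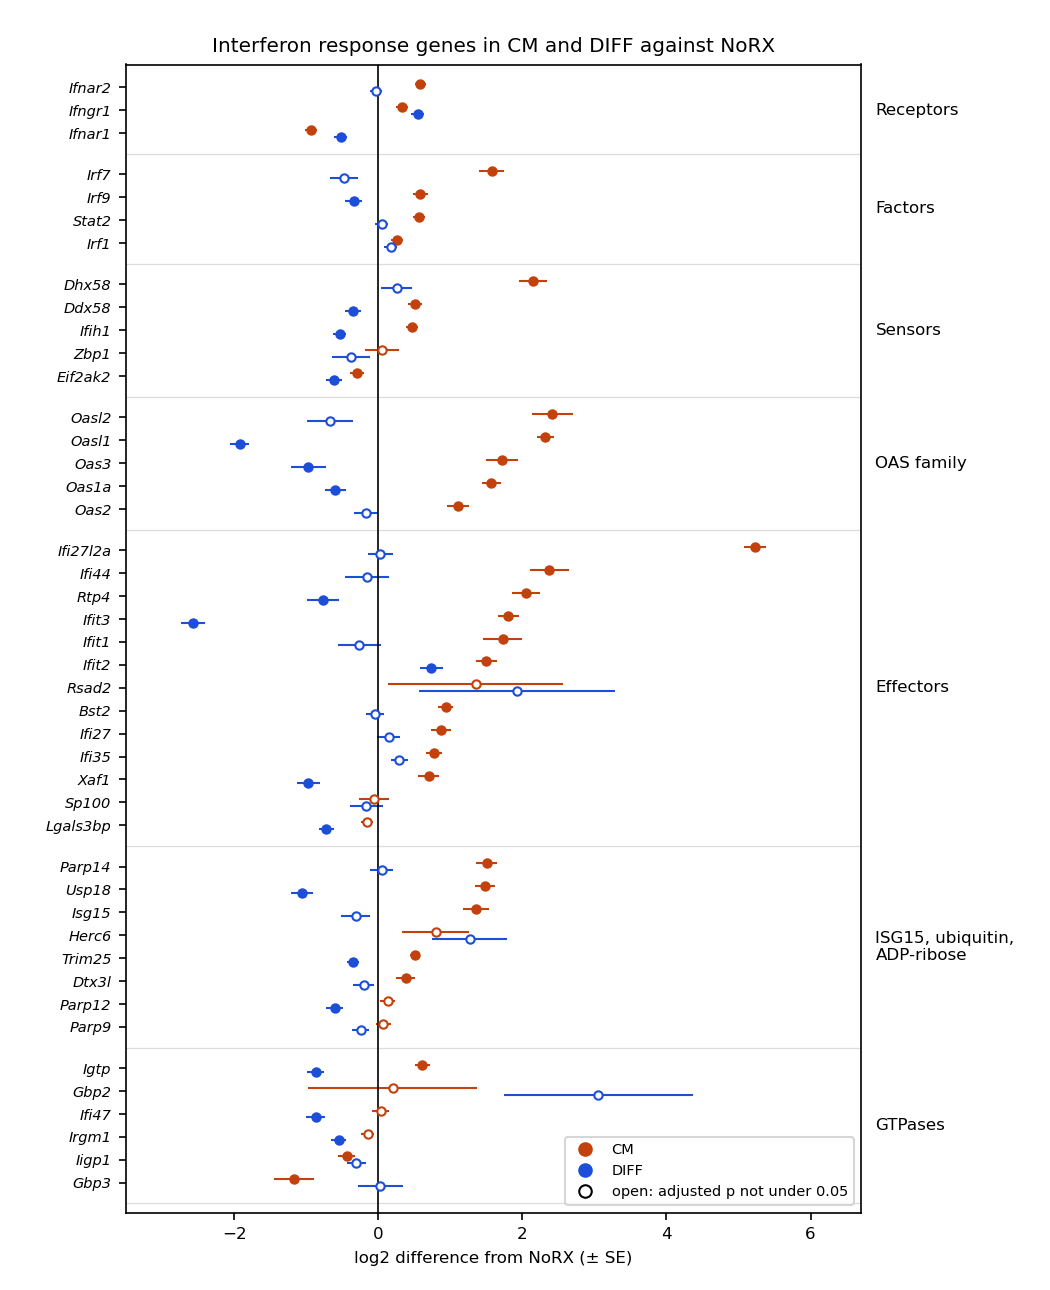
Each row is 1 of the 44 tested genes, grouped by role; the points give the log2 difference from NoRX in CM (orange, 3 against 3 arrays) and in DIFF (blue, 2 against 3 arrays), and the bars are ± 1 standard error. Filled points passed the adjusted threshold of 0.05: 30 CM points are filled to the right of 0 and 4 to the left, and 2 DIFF points to the right and 18 to the left; the widest bars are those of Gbp2 and Rsad2.

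Against NoRX, the DIFF arrays showed few rises among the same genes. Of 44 tested, 2 rose (Ifngr1 and Ifit2) and 18 fell, that is 4.55% and 40.9%, where 14.0% of all genes rose and 28.1% fell, 42.1% in all; 24 did not pass. The median was -0.31 against -0.10 for all genes, and 3 genes, Oasl1, Ifit3 and Usp18, fell at least 2-fold, where 7.87% of all genes did. Herc6, Gbp2 and Rsad2 lay at least 2-fold higher on average and did not pass. Rsad2 was not well above background on DIFF 1 or on any NoRX array. No member rose by at least 2-fold, where 4.58% of all genes did. Both DIFF arrays lay above all NoRX arrays for 3 of the 44 and below for 19, against 19.8% and 37.3% of all genes. The median of all genes moved to 0.05 when arrays were centred on their median instead, and the split of all calls from 1961 higher and 3947 lower to 2400 and 2133; 3 of the 44 then rose and 15 fell.

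Between the media, DIFF was lower than CM for most of the genes. Of 44, 34 fell (77.3%) and 2 rose, Ifnar1 and Gbp3, where 35.6% of all genes fell and 23.6% rose, 59.2% in all. Both DIFF arrays lay below all CM arrays for 35 of the 44 and above for 4, against 41.4% and 27.0% of all genes. The median was -0.86 against -0.11 for all genes, and 18 of the 44 fell at least 2-fold, against 12.3% of all genes; 1 of them, Gbp3, rose at least 2-fold, against 7.99%. The OAS genes (5 of 5 fell, median -2.69) and the effectors (11 of 13, median -0.98) led, followed by the sensors (4 of 5, median -0.86), the genes of ISG15, ubiquitin and ADP-ribose (7 of 8, median -0.80) and the factors (3 of 4, median -0.72). Of 6 GTPases 3 fell and 1 rose (median -0.14), and of 3 receptors 1 fell and 1 rose (median 0.22). Both comparisons with CM use the same CM arrays, and both comparisons with NoRX the same NoRX arrays, so their counts do not add up as separate evidence. With median centring, the median of all genes was 0.06 and all calls split into 3936 higher and 3184 lower in place of 3315 and 4990; 30 of the 44 then fell and 3 rose.

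With the slide row as a block, 28 of the 44 rose and 2 fell in CM against NoRX, where 17.9% and 16.3% of all genes did. In DIFF against NoRX 10 fell and 0 rose (13.4% and 6.52% of all genes). The rises of Ifngr1 and Ifit2 and the falls of Ifnar1, Irf9, Ddx58, Oas1a, Oas3, Rtp4, Trim25 and Irgm1 in DIFF no longer passed in that fit. In DIFF against CM 2 rose and 33 fell (21.2% and 32% of all genes). Only CM 1 shares a row with NoRX, so in the block fit the differences of both media from NoRX depend on CM 1. The fit within the first row (3 NoRX arrays and CM 1) gave the same median difference for the 44 as the block fit (0.60). It is thus no separate check. Within the second row (2 CM and 2 DIFF arrays) 2 rose and 32 fell in DIFF against CM (17.8% and 26.3% of all genes). With array weights, 12 fell and 0 rose in DIFF against NoRX (14.8% and 6.49% of all genes).

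**Figure D2:**
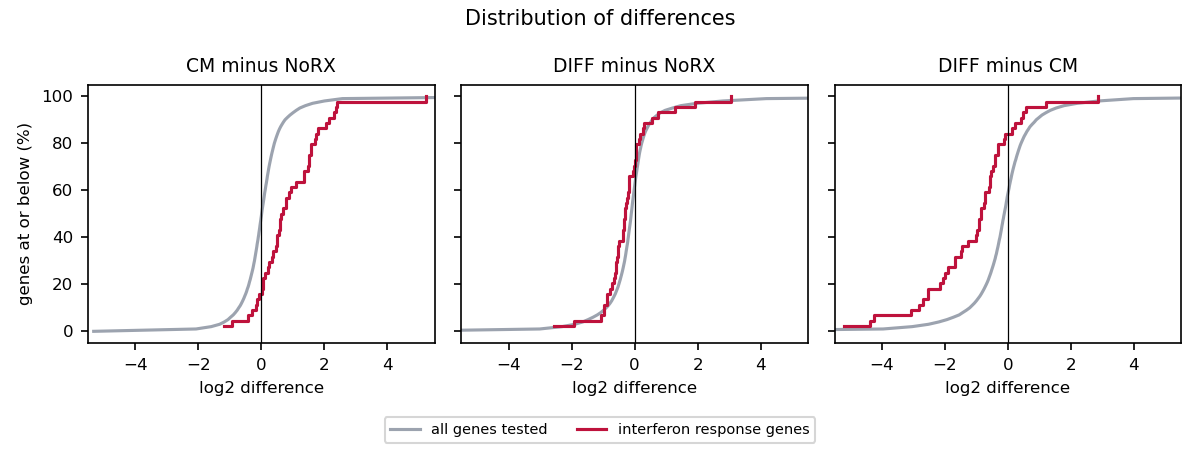
Each panel plots, for 1 comparison, the percentage of genes (vertical axis) at or below a log2 difference (horizontal axis), for all 14035 genes tested (grey) and for the 44 interferon response genes (red). In CM against NoRX the red curve lies to the right of the grey one (medians 0.66 and 0.01), in DIFF against NoRX the curves lie close (medians -0.31 and -0.10), and in DIFF against CM the red curve lies to the left (medians -0.86 and -0.11).

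The receptors did not move together. Ifnar2, the signalling chain of the type I receptor with Ifnar1, was at 3.47, 3.41 and 3.41 on the NoRX arrays, 3.97, 4.03 and 4.03 on the CM arrays and 3.52 and 3.27 on the DIFF arrays. The CM arrays stood above all others, by 0.58 ± 0.08 over NoRX (adjusted p = 7.45e-05), and DIFF overlapped NoRX (-0.03 ± 0.08, adjusted p = 0.791). Ifngr1, which binds interferon gamma, was at 4.09, 4.28 and 4.15 in NoRX, 4.47, 4.59 and 4.46 in CM and 4.83 and 4.62 in DIFF. It rose by 0.33 ± 0.08 in CM (adjusted p = 0.00525) and by 0.55 ± 0.09 in DIFF (adjusted p = 0.000523), with no overlap between groups; with the slide row as a block these were 0.30 (adjusted p = 0.0959) and 0.50 (adjusted p = 0.0614).

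Ifnar1 was at 0.20, 0.17 and 0.16 in NoRX, -0.76, -0.80 and -0.72 in CM, and -0.24 and -0.45 in DIFF. By this probe it fell by 0.94 in CM (± 0.08, adjusted p = 3.82e-06) and by 0.52 in DIFF (± 0.09, adjusted p = 0.000785; 0.0585 with the slide row as a block), and DIFF lay 0.41 ± 0.09 above CM (adjusted p = 0.0878 within the second slide row). The 3 probes of Ifnar1 disagreed. In CM against NoRX the dimmer probes gave 0.38 and -0.05, and in DIFF against CM -0.65 and -0.47 where the brightest gave 0.41. With the mean of the 3 probes, the CM difference was -0.20 (adjusted p = 0.12).

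The factors rose in CM, with Irf7 far ahead of the other 3. Irf7, the factor that amplifies type I interferon production, was at -1.94, -1.66 and -1.60 in NoRX, -0.29, -0.07 and -0.10 in CM, and -1.84 and -2.58 in DIFF. The CM arrays lay apart from all 5 others. It rose by 1.58 ± 0.17 in CM, or 2.99-fold (adjusted p = 2.25e-05), and was 4.17-fold lower in DIFF than in CM (adjusted p = 3.89e-06). In DIFF against NoRX the arrays overlapped and Irf7 did not pass (-0.48 ± 0.19, adjusted p = 0.069); without NoRX 1 it was -0.58 (adjusted p = 0.0482) and without DIFF 1 -0.85 (adjusted p = 0.000917).

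Irf9 and Stat2, which are parts of ISGF3, rose by nearly the same amount. Irf9 was at 1.95, 1.99 and 2.17 in NoRX, 2.63, 2.58 and 2.65 in CM and 1.90 and 1.48 in DIFF; it rose by 0.58 ± 0.10 in CM (adjusted p = 0.000724) and fell by 0.34 in DIFF (± 0.12, adjusted p = 0.0358). Stat2 was at 1.45, 1.45 and 1.57 in NoRX, 2.09, 1.99 and 2.09 in CM and 1.65 and 1.42 in DIFF; it rose by 0.57 ± 0.08 in CM (adjusted p = 0.000125), and DIFF overlapped NoRX (0.05 ± 0.09, adjusted p = 0.707). For both, all CM arrays were above all others. The fall of Irf9 in DIFF was -0.13 without DIFF 2 (adjusted p = 0.213), -0.27 without NoRX 3 (adjusted p = 0.122), -0.37 without NoRX 2 (adjusted p = 0.0583), -0.34 without CM 1 (adjusted p = 0.0507) or CM 3 (adjusted p = 0.0521), and -0.19 with median centring (adjusted p = 0.299). It did not pass with the slide row as a block either (-0.33, adjusted p = 0.333), with the replicate block (-0.30, adjusted p = 0.0667), with array weights (-0.33, adjusted p = 0.246), without the filter on dim probes (adjusted p = 0.0624) or with only NoRX and DIFF in the fit (adjusted p = 0.0686).

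Irf1, an early target of interferon gamma, was at 3.87, 3.89 and 3.82 in NoRX, 4.09, 4.13 and 4.14 in CM, and 4.20 and 3.86 in DIFF. It rose by 0.26 ± 0.08 in CM (adjusted p = 0.0226), the smallest called rise among the 44. That call was lost when NoRX 1 (0.27, adjusted p = 0.0598), NoRX 3 (0.24, adjusted p = 0.0806), CM 2 (0.26, adjusted p = 0.0702) or CM 3 (0.25, adjusted p = 0.0737) was left out, with the slide row as a block (0.23, adjusted p = 0.214), with median centring (0.25, adjusted p = 0.11) and with normexp (0.26, adjusted p = 0.124). DIFF 1 and DIFF 2 lay apart, and DIFF passed against neither group (0.17 and -0.09). Without DIFF 2 the difference from NoRX was 0.34 (adjusted p = 0.000357), and without DIFF 1 that from CM was -0.26 (adjusted p = 0.00117).

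Among the sensors, Dhx58 changed most. Dhx58, which tunes the RNA sensors Ddx58 and Ifih1, was at -2.76, -2.69 and -2.22 in NoRX, -0.44, -0.47 and -0.33 in CM and -1.93 and -2.67 in DIFF. All CM arrays stood above the rest, and it rose by 2.15 ± 0.19, or 4.43-fold (adjusted p = 4.82e-06). DIFF overlapped NoRX (0.26 ± 0.22, adjusted p = 0.362; 0.63 and adjusted p = 0.0212 without DIFF 2) and was 3.7-fold below CM (adjusted p = 1.83e-05).

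Ifih1, a sensor of long double-stranded RNA, was at 1.48, 1.51 and 1.58 in NoRX, 1.96, 1.95 and 2.06 in CM and 1.13 and 0.85 in DIFF. The 3 groups formed 3 separate levels, with CM highest and DIFF lowest: it rose by 0.47 ± 0.08 in CM (adjusted p = 0.0007), fell by 0.53 in DIFF (± 0.09, adjusted p = 0.000774) and was 2-fold lower in DIFF than in CM (adjusted p = 3.4e-06). A dimmer second probe gave 0.00 in CM against NoRX, and the mean of both probes gave 0.23 (adjusted p = 0.134). Ddx58, which senses short RNA with a triphosphate end, rose by 0.51 ± 0.10 in CM (adjusted p = 0.00126) and by 0.80 at its second probe. In DIFF it fell by 0.35 (± 0.11, adjusted p = 0.0238), which was -0.16 without DIFF 2 (adjusted p = 0.106), -0.36 without NoRX 1 (adjusted p = 0.0527), -0.30 without NoRX 3 (adjusted p = 0.0839), -0.20 with median centring (adjusted p = 0.251), -0.34 with the slide row as a block (adjusted p = 0.288) and with array weights (adjusted p = 0.194), and -0.14 as the mean of both probes (adjusted p = 0.457).

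Eif2ak2, the kinase that halts translation on double-stranded RNA, went the other way in CM. It was at 0.65, 0.80 and 0.83 in NoRX, 0.43, 0.42 and 0.55 in CM and 0.32 and -0.02 in DIFF, so that all CM arrays lay below NoRX and both DIFF arrays below CM. It fell by 0.29 in CM (± 0.10, adjusted p = 0.0254) and by 0.61 in DIFF (± 0.11, adjusted p = 0.000906). The CM call was lost without NoRX 2 (-0.27, adjusted p = 0.0835), NoRX 3 (-0.26, adjusted p = 0.0947), CM 1 (-0.28, adjusted p = 0.0807) or CM 2 (-0.27, adjusted p = 0.0848) and with the slide row as a block (-0.33, adjusted p = 0.109). The fall from CM to DIFF (-0.32, adjusted p = 0.0266) was lost without CM 3 (-0.28, adjusted p = 0.0893) or DIFF 2 (-0.15, adjusted p = 0.161), within the second slide row (-0.34, adjusted p = 0.145) and with the replicate block (-0.28, adjusted p = 0.0693). Zbp1, a sensor of Z-form nucleic acid, did not pass in any comparison (0.05 ± 0.24 in CM, -0.37 ± 0.26 in DIFF).

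All 5 OAS genes tested rose in CM. OAS enzymes answer double-stranded RNA by making short oligoadenylates that switch on RNase L, and the OAS-like proteins are their relatives. Oas1a was at 2.86, 2.88 and 3.24 in NoRX, 4.56, 4.53 and 4.60 in CM and 2.64 and 2.15 in DIFF. It rose by 1.57 ± 0.13 in CM (adjusted p = 2.7e-06), its second probe gave 1.56, and in DIFF it fell by 0.60 (± 0.15, adjusted p = 0.00659; adjusted p = 0.13 with the slide row as a block). Oas2 was at 1.96, 1.89 and 2.29 in NoRX, 3.22, 3.07 and 3.17 in CM and 2.20 and 1.55 in DIFF, a rise of 1.1 ± 0.15 in CM (adjusted p = 0.000115) with overlap between DIFF and NoRX (-0.17 ± 0.17, adjusted p = 0.447; -0.50 and adjusted p = 0.0102 without DIFF 1). For Oas1a and Oas2, CM stood above every other array by more than the spread within any group.

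Oas3, the neighbour of Oas2 on the chromosome, was at -2.32, -2.33 and -1.70 in NoRX, -0.34, -0.44 and -0.43 in CM and -2.66 and -3.51 in DIFF. It rose by 1.72 ± 0.22 in CM (adjusted p = 6.47e-05) and fell by 0.97 in DIFF (± 0.24, adjusted p = 0.00781); without DIFF 2 the latter was -0.55 (adjusted p = 0.0661), with normexp -0.34 (adjusted p = 0.0805), with the slide row as a block -0.87 (adjusted p = 0.187) and with array weights -0.91 (adjusted p = 0.195). The groups formed 3 levels without overlap, and the DIFF arrays lay further apart than those of the other groups. The probes of Oas1a and the closely related Oas1g may bind both transcripts, which was not tested.

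Oasl1 and Oasl2, which lie close together on the chromosome, differed in DIFF. Oasl1, known as a brake on Irf7 translation, was at -0.49, -0.23 and -0.52 in NoRX, 1.87, 1.97 and 1.89 in CM and -2.10 and -2.57 in DIFF. It rose 5-fold in CM (2.32 ± 0.12, adjusted p = 9.5e-08) and was 3.79-fold lower in DIFF than in NoRX (-1.92 ± 0.14, adjusted p = 6.19e-07), which put DIFF 18.9-fold below CM. Its 3 groups lay further apart than the arrays within any of them. Oasl2 was at -1.21, -0.77 and 0.07 in NoRX, 1.77, 1.72 and 1.85 in CM and -0.86 and -1.75 in DIFF, rising by 2.42 ± 0.29 in CM (5.34-fold, adjusted p = 3.72e-05). Its NoRX and DIFF arrays overlapped and it did not pass in DIFF against NoRX (-0.67 ± 0.32, adjusted p = 0.119); without NoRX 1 that difference was -0.95 (adjusted p = 0.0224) and without DIFF 1 -1.11 (adjusted p = 0.0271).

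The effector with the greatest change, and the greatest of all 44 members, was Ifi27l2a, a small membrane protein of the interferon-inducible ISG12 family. It was at -0.52, -0.18 and -0.15 in NoRX, 4.93, 4.80 and 5.11 in CM and 0.06 and -0.56 in DIFF. CM lay far above the other 5 arrays, which overlapped one another. The rise was 37.4-fold (5.23 ± 0.15, adjusted p = 2.73e-09), DIFF lay close to NoRX (0.03 ± 0.17, adjusted p = 0.903), and DIFF was 36.6-fold below CM (adjusted p = 8.18e-10). Ifi27, the next gene on the chromosome, rose by 0.87 ± 0.14 in CM (adjusted p = 0.000339), with DIFF at 0.15 ± 0.16 (adjusted p = 0.484).

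The Ifit genes, whose proteins bind viral RNA and hold up its translation, all rose in CM and parted in DIFF. Ifit1 was at -2.71, -2.39 and -1.52 in NoRX, -0.55, -0.59 and -0.29 in CM and -2.14 and -2.79 in DIFF; it rose by 1.73 ± 0.27 (adjusted p = 0.000265), and the DIFF arrays lay within or just below the NoRX range (-0.26 ± 0.30, adjusted p = 0.51). Ifit2 was at -3.42, -3.17 and -3.17 in NoRX, -1.88, -1.74 and -1.64 in CM and -2.40 and -2.63 in DIFF; it rose by 1.5 ± 0.14 in CM (adjusted p = 6.76e-06) and by 0.74 ± 0.16 in DIFF (adjusted p = 0.00296; 0.55 and adjusted p = 0.218 with the slide row as a block). Ifit2 thus stood between NoRX and CM in DIFF, the only effector called higher there.

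Ifit3, next to Ifit2 on the chromosome, was at 0.16, 0.64 and 0.85 in NoRX, 2.35, 2.28 and 2.44 in CM and -2.14 and -1.89 in DIFF. It rose 3.5-fold in CM (1.81 ± 0.15, adjusted p = 2.57e-06) and was 5.93-fold lower in DIFF than in NoRX (-2.57 ± 0.17, adjusted p = 2.97e-07), so that DIFF was 20.7-fold below CM. It is 1 of 4 members in which DIFF 2 was the higher of the DIFF arrays. Ifit3b, a close copy of Ifit3 that is not among the 49, gave 1.24 ± 0.15 in CM (adjusted p = 3.7e-05) and -2.86 ± 0.16 in DIFF (adjusted p = 1.05e-07); whether the probes tell the copies apart was not tested.

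Rtp4 and Ifi44 were also among the strongly raised effectors. Rtp4, a receptor-transporting protein induced by type I interferon, was at 0.82, 0.94 and 1.59 in NoRX, 3.10, 3.12 and 3.28 in CM and 0.67 and 0.02 in DIFF; it rose by 2.05 ± 0.20 in CM (4.15-fold, adjusted p = 8.27e-06). In DIFF it fell by 0.77 (± 0.22, adjusted p = 0.0164), which was -0.44 without DIFF 2 (adjusted p = 0.157), -0.87 with the slide row as a block (adjusted p = 0.141) and -0.71 with array weights (adjusted p = 0.351). Ifi44 was at -5.5, -4.74 and -4.70 in NoRX, -2.46, -2.80 and -2.56 in CM and -5.04 and -5.25 in DIFF, and it rose by 2.37 ± 0.27 in CM (adjusted p = 2.98e-05). It was not well above background on NoRX 1 and DIFF 2, so its low side is measured less well than its high side.

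Xaf1, which promotes cell death by binding the inhibitor XIAP, was at 1.15, 1.19 and 1.52 in NoRX, 1.98, 1.93 and 2.04 in CM and 0.61 and 0.02 in DIFF. The groups formed 3 levels without overlap: it rose by 0.70 ± 0.14 in CM (adjusted p = 0.00163) and fell by 0.97 in DIFF (± 0.16, adjusted p = 0.000474). Bst2, which tethers budding virus to the cell surface, rose by 0.93 ± 0.11 (adjusted p = 3.31e-05) and Ifi35 by 0.77 ± 0.11 (adjusted p = 0.000106) in CM, and neither passed in DIFF against NoRX (-0.04 and 0.29). Without DIFF 2, Ifi35 was 0.50 above NoRX in DIFF (adjusted p = 0.00113).

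The remaining effectors did not rise. Lgals3bp, a secreted glycoprotein, was -0.16 ± 0.09 in CM (adjusted p = 0.171; 0.0227 without DIFF 1 and 0.022 without DIFF 2) and fell by 0.72 in DIFF (± 0.10, adjusted p = 0.000151). Sp100, a nuclear body protein, did not pass in any comparison. Rsad2, the antiviral enzyme viperin, was well above background on CM 3 (-3.03) and DIFF 2 (-2.81) and on no other array, where it lay between -7.34 and -6.90. It did not pass in CM (adjusted p = 0.386) or in DIFF (adjusted p = 0.285; adjusted p = 0.0263 without DIFF 1, on 1 DIFF array). No bound on the fold is given, because DIFF 1 was not well above background either. The high values of Rsad2 rest on 1 array each in CM and DIFF and were not seen on the other arrays of those groups.

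**Figure D3:**
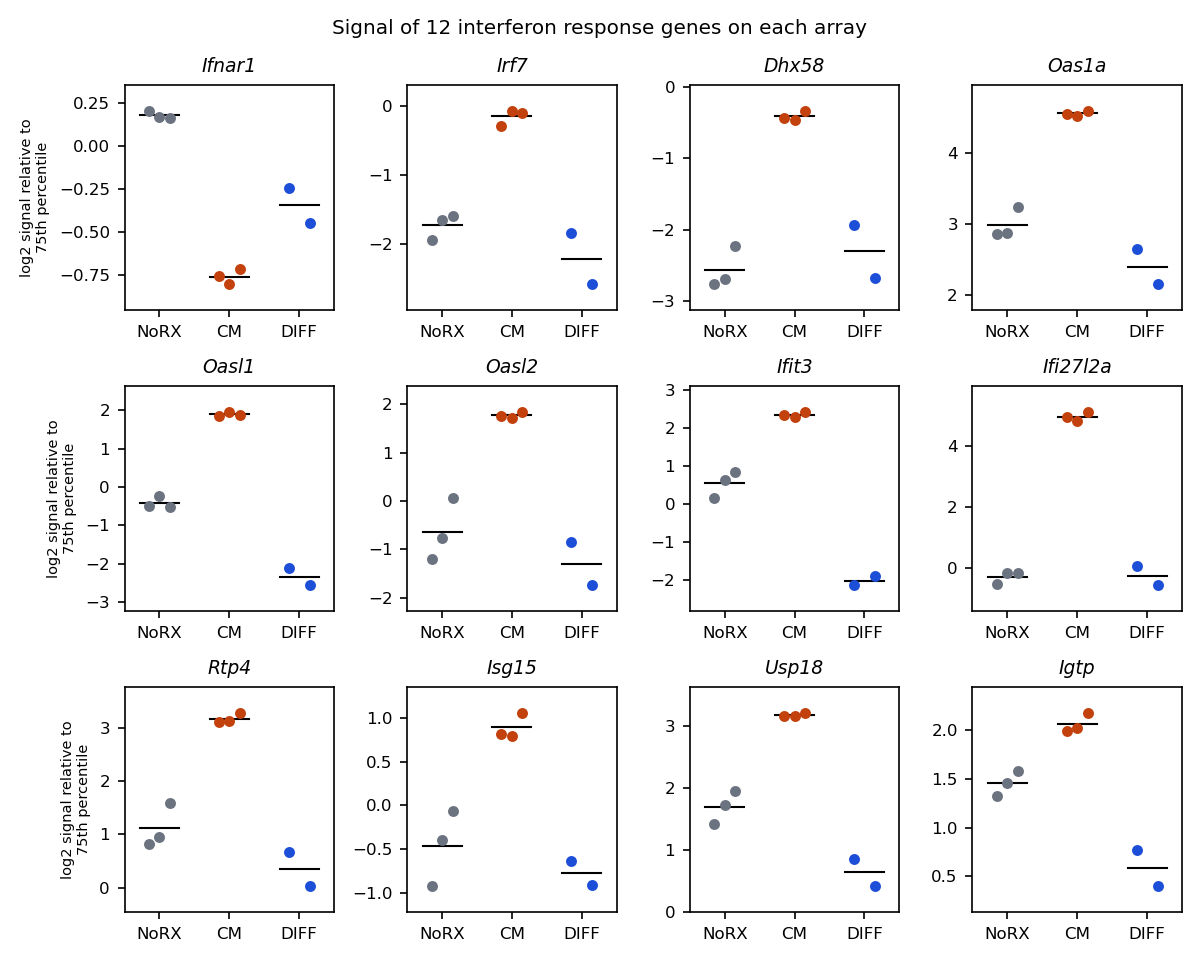
Each panel shows 1 of 12 genes; the vertical axis is the log2 signal relative to the 75th percentile of the array (scales differ between panels), each point is 1 array (3 NoRX, 3 CM, 2 DIFF) and the line is the group mean. In 11 panels the CM points lie above all others, from Igtp (lowest CM array 1.99, highest NoRX array 1.58) to Ifi27l2a (4.80 and -0.15); Ifnar1 is lowest in CM.

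Isg15, the ubiquitin-like protein that is attached to other proteins during the response, was at -0.93, -0.40 and -0.07 in NoRX, 0.82, 0.80 and 1.06 in CM and -0.64 and -0.91 in DIFF. It rose by 1.35 ± 0.18 in CM (adjusted p = 9.33e-05) and was 3.17-fold lower in DIFF than in CM. DIFF overlapped NoRX (-0.31 ± 0.20, adjusted p = 0.245), and without NoRX 1 that difference was -0.54 (adjusted p = 0.0151). A dimmer second probe gave 0.66 in CM against NoRX, which did not pass, and -1.19 in DIFF against NoRX; with the mean of both, DIFF was -0.75 from NoRX (adjusted p = 0.00577).

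Usp18, which strips ISG15 from proteins and dampens signalling at Ifnar2, was at 1.41, 1.72 and 1.95 in NoRX, 3.16, 3.15 and 3.21 in CM and 0.86 and 0.41 in DIFF. Its 3 groups lay apart: it rose 2.79-fold in CM (1.48 ± 0.14, adjusted p = 6.3e-06) and was 2.09-fold lower in DIFF than in NoRX (-1.06 ± 0.15, adjusted p = 0.000204), which is 5.83-fold between DIFF and CM. Parp14, an ADP-ribosyltransferase, was at -1.82, -1.76 and -1.38 in NoRX, -0.21, -0.19 and -0.04 in CM and -1.38 and -1.83 in DIFF. It rose by 1.51 ± 0.14 in CM (adjusted p = 7.71e-06), and the DIFF arrays spanned the range of NoRX (0.05 ± 0.16, adjusted p = 0.84).

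Trim25, the ubiquitin ligase that activates Ddx58, rose by 0.51 ± 0.07 in CM (adjusted p = 0.000145) and fell by 0.35 in DIFF (± 0.08, adjusted p = 0.00492), a fall that was -0.19 with median centring (adjusted p = 0.239) and -0.38 with the slide row as a block (adjusted p = 0.121). Parp9 and Dtx3l are neighbours on the chromosome whose proteins form a complex. Dtx3l rose by 0.38 ± 0.13 in CM (adjusted p = 0.0316), a call lost without NoRX 1 (0.30, adjusted p = 0.118), NoRX 2 (0.38, adjusted p = 0.071), CM 1 (0.30, adjusted p = 0.117) or CM 3 (0.36, adjusted p = 0.0858). From CM to DIFF it fell by 0.58, and by 0.37 without DIFF 2 (adjusted p = 0.0548). Parp9 was 0.07 ± 0.11 in CM (adjusted p = 0.621), and its fall from CM to DIFF (-0.31, adjusted p = 0.0419) was lost when any array but DIFF 1 was left out, with adjusted p between 0.0503 and 0.334, and with the replicate block (-0.27, adjusted p = 0.0841) or the slide row as a block (-0.32, adjusted p = 0.0732). Parp12 fell by 0.60 in DIFF (± 0.12, adjusted p = 0.00175) and was 0.13 ± 0.11 in CM (adjusted p = 0.332). Herc6, the mouse ligase for ISG15, did not pass, and its probes differed in sign in CM (0.80 and -0.41); without DIFF 1 it was 2.01 above NoRX in DIFF (adjusted p = 0.0119).

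The GTPases, which attack the membranes around intracellular microbes and are known mainly as targets of interferon gamma, differed from the pattern of the OAS genes in counts and medians. Of the 6 tested, 16.7% rose and 33.3% fell in CM, against 26.9% and 25.3% of all genes. GTPases among the further pathway genes counted below went both ways in CM against NoRX. Gbp8 was measured in CM and not in NoRX, at least 1.56-fold higher (adjusted p = 0.00931). All CM arrays lay above all NoRX arrays for Irgm2 and Tgtp2, and below them for Gbp5 and Gbp6. Gbp5 was not well above background on any CM array. The groups overlapped for Gbp9 and Gbp10. Among the 6, Igtp was the only rising member in CM. It was at 1.32, 1.46 and 1.58 in NoRX, 1.99, 2.03 and 2.18 in CM and 0.78 and 0.40 in DIFF, a rise of 0.61 ± 0.11 in CM (adjusted p = 0.000629) and a fall of 0.87 in DIFF (± 0.12, adjusted p = 0.000145); a replicate spot of its probe on NoRX 3 was flagged as an outlier and left out. Gbp3 was at -3.36, -3.04 and -2.83 in NoRX, -4.79, -3.93 and -4.00 in CM and -2.72 and -3.37 in DIFF. It was 2.25-fold lower in CM than in NoRX (-1.17 ± 0.28, adjusted p = 0.0045), the largest fall of the 44 in CM, and was not well above background on CM 1. DIFF overlapped NoRX and lay 1.2 ± 0.31 above CM (adjusted p = 0.00638; 0.87 and adjusted p = 0.0578 without DIFF 1).

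Iigp1 fell by 0.44 in CM (± 0.12, adjusted p = 0.00946; adjusted p = 0.0828 with the slide row as a block) and was -0.30 ± 0.13 in DIFF (adjusted p = 0.0882). Ifi47 and Irgm1 did not pass in CM (0.04 ± 0.12 and -0.15 ± 0.09) and fell in DIFF, by 0.87 (± 0.13, adjusted p = 0.000297) and 0.55 (± 0.10, adjusted p = 0.00139; 0.0538 with the slide row as a block). Gbp2 was at -2.34, -2.20 and -2.18 in NoRX, -2.48, -2.55 and -1.10 in CM and -2.42 and 4.04 in DIFF. The value on DIFF 2 stands far above all others, and the spot was flagged there for uneven local background. Gbp2 did not pass in DIFF against NoRX (3.05 ± 1.31, adjusted p = 0.0845; 3.31 and adjusted p = 0.0311 with the replicate block); without DIFF 1 the difference was 6.28 (adjusted p = 4.2e-06), and without DIFF 2 it was -0.17 (adjusted p = 0.786).

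The members also varied together between arrays of the same group. NoRX 3 was the highest NoRX array for 37 of the 44 (84.1%) and NoRX 1 the lowest for 32 (72.7%), against 35.3% and 36.3% of all genes. CM 3 was the highest CM array for 31 (70.5%) and CM 2 the lowest for 27 (61.4%), against 37.5% and 33.4%. The median standard deviation over the NoRX arrays was 0.15 for the members and 0.06 for all genes, over CM 0.08 and 0.06, and between the DIFF arrays 0.30 and 0.19. DIFF 1 was the higher for 40 of the 44 (90.9%), which is near the 93.1% of all genes. Herc6, Oasl2 and Ifit1 were among the members with the widest spread over NoRX. The arrays of a group carry no order, and what sets these arrays apart was not tested.

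**Figure D4:**
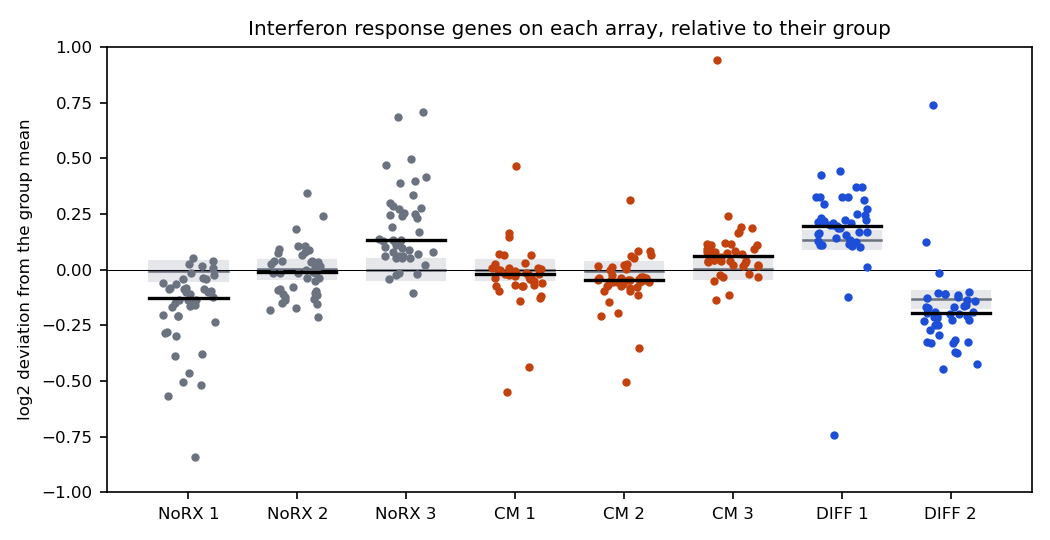
Each point is 1 of the 44 genes on 1 array, as the log2 deviation from the mean of its group (vertical axis); the black line is the median of the 44, and the grey line and band are the median and the interquartile range of all genes, and 7 points beyond ± 1 are not drawn. The medians of the members are -0.13 on NoRX 1 and 0.13 on NoRX 3, where those of all genes are near 0, and on the DIFF arrays members and all genes are both shifted, by 0.20 and 0.13 on DIFF 1.

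Of 103 further genes of interferon production, signalling, restraint and response, 83 were tested; 36 rose and 10 fell in CM against NoRX (43.4% and 12%, against 26.9% and 25.3% of all genes), with a median of 0.23 against 0.01. In DIFF against NoRX 8 rose and 32 fell (9.64% and 38.6%, against 14.0% and 28.1%), with a median of -0.23 against -0.10. In DIFF against CM 8 rose and 48 fell (9.64% and 57.8%, against 23.6% and 35.6%), with a median of -0.33 against -0.11. The counts by list that follow are read against the same shares of all genes. Of 16 interferon genes 7 were tested; in CM, 5 of them did not pass, and Ifna2 (-0.81 ± 0.28, adjusted p = 0.028; not well above background on CM 1) and Ifna11 (-0.77 ± 0.18, adjusted p = 0.00413) were lower, which is 28.6% against the 25.3% of all genes. Ifnb1, Ifng, Ifna4, Ifne and Ifnk were not well above background on 2 arrays. Of 8 further receptors, kinases and factors of signalling 1 rose in CM, Ifnlr1 by 0.25 ± 0.08 (adjusted p = 0.0184), which is a chain of the type III interferon receptor. The kinases Jak1, Jak2 and Tyk2 did not pass in CM.

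Of 12 adaptors, kinases and factors of sensing, 5 rose and 1 fell in CM (41.7% and 8.33%). Irf5 rose by 1.96 ± 0.47 (adjusted p = 0.00479; not well above background on NoRX 1), Irf8 by 1.6 ± 0.30 (adjusted p = 0.00112) and Irf2 by 0.75 ± 0.09 (adjusted p = 2.78e-05). Irf5 and Irf8 were not well above background on either DIFF array, and were at least 3.64-fold and at least 3.29-fold lower in DIFF than in CM, where the bound sets the CM mean against the lowest signal that counts as measured. Tmem173, the adaptor STING of DNA sensing, was -0.07 ± 0.12 in CM and fell by 1.42 in DIFF (± 0.13, adjusted p = 5.15e-06).

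Of 12 negative regulators, 3 rose and 3 fell in CM (25% each), near the shares of all genes. Socs3, an inhibitor of cytokine signalling, rose by 0.26 ± 0.07 (adjusted p = 0.00614); Socs1, the main inhibitor of interferon signalling of that family, was -0.12 ± 0.12 in CM and fell by 1.28 in DIFF (± 0.14, adjusted p = 1.94e-05). Of 44 other interferon-induced genes tested, 27 rose and 4 fell in CM (61.4% and 9.09%), 6 rose and 19 fell in DIFF against NoRX (13.6% and 43.2%), and 6 rose and 31 fell in DIFF against CM (13.6% and 70.5%). Ifitm1 was measured in CM and not in NoRX, at least 2.46-fold higher (adjusted p = 0.000398), Trim30a rose by 1.85 ± 0.27 (adjusted p = 0.000196) with only NoRX 2 of the NoRX arrays well above background, and Ifi204, a DNA-binding protein, rose by 1.25 ± 0.07 in CM (adjusted p = 1.55e-07) and fell by 1.73 in DIFF (± 0.08, adjusted p = 1.74e-08).

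Markers of other cell types were measured beside these results. Of 7 tested macrophage and leukocyte markers 2 rose in CM, Csf1r by 0.56 ± 0.12 and Cd14 by 1.01 ± 0.09, and 5 fell in DIFF against NoRX. These are 28.6% and 71.4%, where 26.9% of all genes rose in CM and 28.1% fell in DIFF. The summed signal of the 7, in multiples of the 75th percentile, was 152 to 165 in NoRX, 137 to 149 in CM and 113 to 137 in DIFF. The probe of Siglech carried most of it (132 to 144 in NoRX), and without it the sums were 20.4 to 22.4, 24.97 to 25.8 and 13.3 to 16.1, so that CM was the highest group and DIFF the lowest. Of 7 stellate cell and fibroblast markers 2 rose in CM, Des and Pdgfra, and 1 fell (28.6% and 14.3%). Their summed signal was 0.72 to 0.76 in NoRX, 1.59 to 1.89 in CM and 0.26 to 0.39 in DIFF. Des carried 1.00 to 1.03 of the CM sums, and without it the sums were 0.46 to 0.48, 0.59 to 0.87 and 0.11 to 0.17. Dcn was at -1.53 on CM 1 and at -4.27 on CM 2 and CM 3, which raises the sum of CM 1. Such sums weight a gene by its probe, so their order of groups depends on the probes included. Of 5 endothelial markers, 1 rose (Cdh5) and 1 fell (Lyve1) in CM (20% each), with sums of 10.1 to 12.2, 10.5 to 11.4 and 8.29 to 9.76. Kdr carried most of each (9.90 to 12.04 in NoRX), and the sums without it were 0.19 to 0.25, 0.32 to 0.36 and 0.49 to 0.59. Lyve1 was at -1.22 and -1.24 on the DIFF arrays and between -5.30 and -4.56 in NoRX, which raises the DIFF sums. In DIFF against NoRX Lyve1 rose, Kdr fell, and Pecam1, Cdh5 and Stab2 did not pass. The part of these markers in the results was not tested, and fewer cells of a type and less RNA per cell cannot be told apart in such samples.

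The ISRE core was not confined to genes that rose. It was found in 10 of the 23 members with a promoter entry that rose in CM (43.5%), 2 of 3 that fell (66.7%) and 3 of 8 that did not pass (37.5%), and in 5 of the 10 that rose at least 2-fold (50%). The 5 genes whose sequences are printed above were chosen for a rise of at least 2-fold in CM, so their rise is no result about the core. Gbp2, Irgm1, Rsad2, Eif2ak2 and Gbp3 hold the same core and did not rise. No match was found in the windows of Oasl1, Oasl2, Ifi44, Irf7 and Ifit2, which says only that these letters are not in those windows.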

How the data were processed

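Per the labels' protocols, Cy3-labelled RNA was hybridised to an Agilent SurePrint G3 mouse array of the 8 x 60K format, and the submitters' processing notes name Agilent Feature Extraction 11.0.1.1 as the scanner software. The deposited files hold, per spot, the processed signal intensity after background subtraction, not normalized between arrays, with flags for outliers and for signal well above background. The deposited series table holds the same intensity values (largest difference 0).

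Flagged outlier spots and controls were left out, log2 intensity was set relative to the 75th percentile of each array, and spots of a probe were averaged. Of 55681 probes, 27235 matched a gene through unversioned RefSeq accessions (GRCm38.p6). Probes well above background on at least 2 arrays were kept, the brightest per gene. All 8 arrays were fitted in 1 model, with a mean per group, with limma 3.58.1 in R 4.3.3 (eBayes with trend, Benjamini-Hochberg threshold 0.05). The fit was also run on simulated data in which genes varied independently. Those data held no array-wide shift and no slide-row difference, so they cannot check the calls where arrays differ in these ways. Where a group was not above background on any array, a fold is a bound against the lowest signal that counted as measured, or the probe's own where higher. Figures were drawn with matplotlib 3.10.9. Intensities carry no count, so the number of arrays limits the precision.

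The members, role groups, pathway lists and marker lists were chosen with earlier results of these data known. Values on every array are given for members that passed with at least a 2-fold difference in any comparison, for receptors and factors and for the most changed member of a role; Eif2ak2, Rsad2 and Gbp2 were added after their values were seen. Of the pathway genes, those named are among the called genes with the largest differences of each list, and the interferons. The kinases and the further GTPases were added after their values were seen. Some genes are not reported here. Alternatives concerned background correction, scaling, filter, probes, array weights, slide row, replicate block, uneven spots, the series table and each array left out. The scanner files have no mean signal, so the normexp correction (offset 50) was run on the median signal, an alternative chosen after seeing the data.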

Additional observations from a re-analysis of the deposited data

How the results depend on the processing

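Some called members kept their direction and stayed past the threshold under every alternative that tested them. They were 27 of 34 in CM against NoRX and 27 of 36 in DIFF against CM, with up to 22 alternatives each. In DIFF against NoRX, with 21 alternatives, they were 10 of 20. Ifi44 and Gbp3 were tested under 21 alternatives in CM against NoRX, as was Ifi44 in DIFF against CM. The deposited series table counts as 1 alternative, and since its values are the same it could not differ. Counts that moved by over 1.5 times were as follows. With the slide row as a block, members lower in CM numbered 2, further pathway genes 19 higher and 3 lower and all genes changed 4796; in DIFF against NoRX, members numbered 0 higher (2 at an unadjusted p under 0.05, limma) and 10 lower, pathway genes 15 lower and all genes 2802; in DIFF against CM, pathway genes 3 higher. With array weights, DIFF against NoRX gave 0 members higher (2 unadjusted, limma), 4 pathway genes higher and 16 lower and 2988 genes changed, and DIFF against CM 1 member higher, 3 pathway genes higher and 26 lower and 5315 genes changed. Median centring gave 17 pathway genes lower in DIFF against NoRX and 31 against CM. In DIFF against NoRX, members higher numbered 4 with probes above background on all arrays, 4 without spots of uneven background and 5 with both DIFF arrays averaged. In DIFF against CM, members higher numbered 1 with the mean of probes and 4 with both DIFF arrays averaged, and pathway genes higher 5 with only the compared groups in the fit and 4 within a slide row. Normexp gave 6 pathway genes lower in CM. The cause of these shifts was not tested.

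Ifnar1 in DIFF against CM turned to -0.24 with the mean of probes, and with normexp Irf8 turned to 0.073 in DIFF against NoRX and Gbp8 to 0.090 in DIFF against CM. Of 910 values of the 42 counts by role, 70 moved by over 1.5 times.

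Leaving out each array in turn, in CM against NoRX members higher ranged from 28 to 30, members lower from 3 to 5, pathway genes higher from 28 to 42 and lower from 4 to 13, and all genes changed from 6109 to 9309. In DIFF against NoRX the ranges were 2 to 5, 14 to 24, 8 to 13, 26 to 44 and 4729 to 8487, and in DIFF against CM 2 to 3, 31 to 35, 3 to 13, 37 to 55 and 7342 to 9788. Without DIFF 2, 3766 genes were higher and 3368 lower in DIFF against NoRX, and without DIFF 1, 1753 and 6734; either left DIFF with 1 array, assumed to vary like the other groups.

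Same-numbered arrays of NoRX and CM did not deviate together (correlations -0.0073, 0.0095 and -0.0568 over genes), nor did all pairs with DIFF (-0.0249 to 0.175), so the numbers were not taken as pairs. With the replicate block, 30 members rose and 4 fell in CM against NoRX, where 25% and 23.9% of all genes did. In DIFF against NoRX 3 members rose and 17 fell (12.8% and 24.8% of all genes). In DIFF against CM 3 members rose and 32 fell (22.4% and 33% of all genes), and 5 pathway genes rose. Members near background (Rsad2, Ifi44, Herc6, Gbp3) are limited by signal.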
